A study of Mus musculus with 12 samples.

Results

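Dermal papilla was compared with interfollicular dermis, 2 of the 4 cell populations that the study sorted from mouse back skin. All libraries came from male Sox2:GFP/aSMA:dsRed mice at postnatal day 26 to 27, labelled as early anagen, the start of a hair growth cycle. These mice carry a green reporter named for Sox2, a transcription factor gene of the papilla, and a red reporter named for alpha smooth muscle actin, and both groups come from this 1 strain with no other treatment given. Skin was digested with dispase and collagenase, stained with antibodies that the labels do not name, and sorted by flow cytometry. Each group has 3 libraries, numbered 1, 2 and 4 for dermal papilla and 1, 2 and 6 for interfollicular dermis. The other populations, dermal stem cells and dermal sheath with 3 libraries each, entered the fit only for its estimate of the spread. The genes described are those with at least 1 FPKM in at least 3 of these 6 libraries, 11783 of the 24692 entries in the table. FPKM counts sequenced fragments relative to transcript length and library size, so it is a level per length. Whether each library is a separate animal is not stated in the labels. A p-value here is therefore set against the spread among libraries within a group, and that spread may be technical only. This spread is pooled over all 4 populations, so a gene that varies among dermal stem cell or dermal sheath libraries gets a larger SE.

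The dermal papilla is a compact cluster of specialised fibroblasts at the base of the hair follicle. At the start of a growth cycle it releases signals, among them FGF ligands, R-spondins and inhibitors of BMP and Wnt ligands, that act on the overlying epithelial progenitors, and the hair matrix derived from them divides and forms the shaft and inner root sheath. The interfollicular dermis is the collagen-rich connective tissue between follicles, whose fibroblasts express Pdgfra and secrete fibrillar collagen. The comparison bears on what distinguishes follicle mesenchyme from the dermis around it, as far as the labels hold.

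Summed FPKM per library ranged from 181683 to 239132, between 10742 and 11519 genes reached 1 FPKM, and 31.3% to 41.9% of entries were listed at 0. Relative to dermal papilla replicate 1, the depth read from low genes ran from 0.768 to 1 in dermal papilla and from 0.883 to 2.33 in interfollicular dermis, where replicate 6 was the deepest. The 10 most abundant genes held 11% to 16.4% of the total in dermal papilla and 3.74% to 7.31% in interfollicular dermis. Across the 11783 genes, Pearson's r was 0.834 to 0.918 between dermal papilla libraries, 0.890 to 0.941 between interfollicular dermis libraries and 0.588 to 0.712 between the groups. These are correlations across genes, which are not independent replicates. In the sentences below, values of single libraries are FPKM in the order replicates 1, 2 and 4 of dermal papilla, then replicates 1, 2 and 6 of interfollicular dermis. A fold change is the difference of mean log2(FPKM + 1), dermal papilla minus interfollicular dermis, and a gene passed when its adjusted p from limma was under 0.05. Among the genes named below as higher or lower, the 2 groups of libraries overlapped in Alpl, Cdkn1c, Elf3, Gli1, Kitl and Tek and in no other.

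Fibroblast genes went against the name interfollicular dermis, which is used below only as the label of those 3 libraries. Pdgfra, the receptor that marks dermal fibroblasts (chromosome 5, 75151322 to 75198206), had levels of 28.3, 28.9 and 47.4 FPKM in dermal papilla and 3.32, 2.24 and 4.95 FPKM in interfollicular dermis. Its level was lower in every interfollicular dermis library than in every dermal papilla library (log2 fold change 3.0, SE 0.33, adjusted p = 3.33e-05). Col1a1, which encodes a chain of type I collagen, was at 7642, 3167 and 5729 against 23.2, 152 and 415 FPKM, a mean of 5513 ± 2245 FPKM (SD, n = 3) in dermal papilla and 197 ± 199.6 in interfollicular dermis. Interfollicular dermis replicate 6 had the most of its group and replicate 1 the least, and the groups did not overlap (log2 fold change 5.49, SE 0.81, adjusted p = 0.00023). The mesenchymal intermediate filament gene Vim was read at 838, 779 and 1016 against 132, 129.6 and 154 FPKM (2.65, adjusted p = 0.000234). Lum, a small proteoglycan of collagen fibrils, was at 576, 332 and 591 against 6.16, 11 and 17 FPKM (5.39, adjusted p = 7.39e-06). All 16 dermal fibroblast markers were tested, and 15 of them were higher in dermal papilla and 0 in interfollicular dermis, with a median log2 fold change of 2.87. For comparison, 14.5% of all tested genes were higher in dermal papilla and 30.8% in interfollicular dermis, and the median over all genes was -0.36. Summed over the list, fibroblast markers held 18236 to 32177 FPKM in dermal papilla and 971 to 1996 in interfollicular dermis.

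Genes known from fibroblasts outside the follicle ran the same way. Of 18 tested interfollicular fibroblast markers, 13 were higher in dermal papilla and 0 in interfollicular dermis (median 2.35). Clec3b, which encodes the plasminogen-binding protein tetranectin, was at 352, 188 and 289 against 1.87, 3.6 and 9.68 FPKM (5.69, adjusted p = 1.79e-06). Pi16, a peptidase inhibitor of adventitial fibroblasts, was at 145, 131 and 25.2 against 0.598, 0.461 and 1.56 FPKM (5.45, adjusted p = 1.93e-05). Dermal papilla replicate 4 had the least Pi16 of its group, but still above every interfollicular dermis library. Dpp4, a surface peptidase of papillary fibroblasts, was read at 25, 30.1 and 13 against 4.16, 2.12 and 4.42 FPKM (2.34, adjusted p = 0.000731), again lowest of its group in dermal papilla replicate 4.

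Epithelial genes were present in both groups. Trp63, which maintains basal keratinocytes (chromosome 16, 25683763 to 25892088), had levels of 24.8, 14.8 and 8.86 FPKM in dermal papilla and 98.1, 75.8 and 93.2 FPKM in interfollicular dermis. Every interfollicular dermis library was above every dermal papilla library (log2 fold change -2.49, SE 0.35, adjusted p = 0.000157). Krt5, the basal keratin gene, was at 142, 198 and 81 against 305, 430.5 and 398 FPKM (-1.5, adjusted p = 0.00459), and its partner Krt14 at 96, 163 and 60.9 against 182, 266 and 229 FPKM (-1.17, adjusted p = 0.0255). The Krt14 call was lost under median-of-ratios scaling and ended without dermal papilla replicate 1 (adjusted p = 0.0613), dermal papilla replicate 4 (0.099), interfollicular dermis replicate 2 (0.0851) or interfollicular dermis replicate 6 (0.0548), and over all alternatives its adjusted p ran from 0.00471 to 0.103. Epcam, an adhesion gene of epithelial cells, was at 87.1, 113 and 35.1 against 130.3, 122 and 102 FPKM and did not pass (-0.74, adjusted p = 0.127), though it did under quantile normalization. Of 20 basal keratinocyte genes dermal papilla had 0 higher and 7 lower (35%, near the 30.8% of all tested genes), with a median of -0.26 that became 0.13 under median-of-ratios scaling, where 1 was higher and 4 lower and 18% of all genes were lower. The count of 7 fell to 4 without dermal papilla replicate 4 and to 4 without interfollicular dermis replicate 6. Summed over the list, basal keratinocyte genes held 854 to 2320 FPKM in dermal papilla and 1966 to 2220 in interfollicular dermis. In bulk libraries, fewer cells of a type and less RNA per cell cannot be told apart.

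The 2 reporter genes themselves were low in interfollicular dermis. Sox2 did not reach 1 FPKM in 3 libraries and was not tested. Its levels were 0.882, 2.66 and 7.17 FPKM in dermal papilla and 0.26, 0.345 and 0.117 in interfollicular dermis, without overlap. Acta2, the smooth muscle actin gene, was read at 29.3, 86.4 and 20.5 against 5.72, 10.4 and 9.95 FPKM (2.03, adjusted p = 0.00313). Because the mice carry reporters of both genes and the cells were sorted, their difference is a check of the labels and not a finding.

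**Figure D1:**
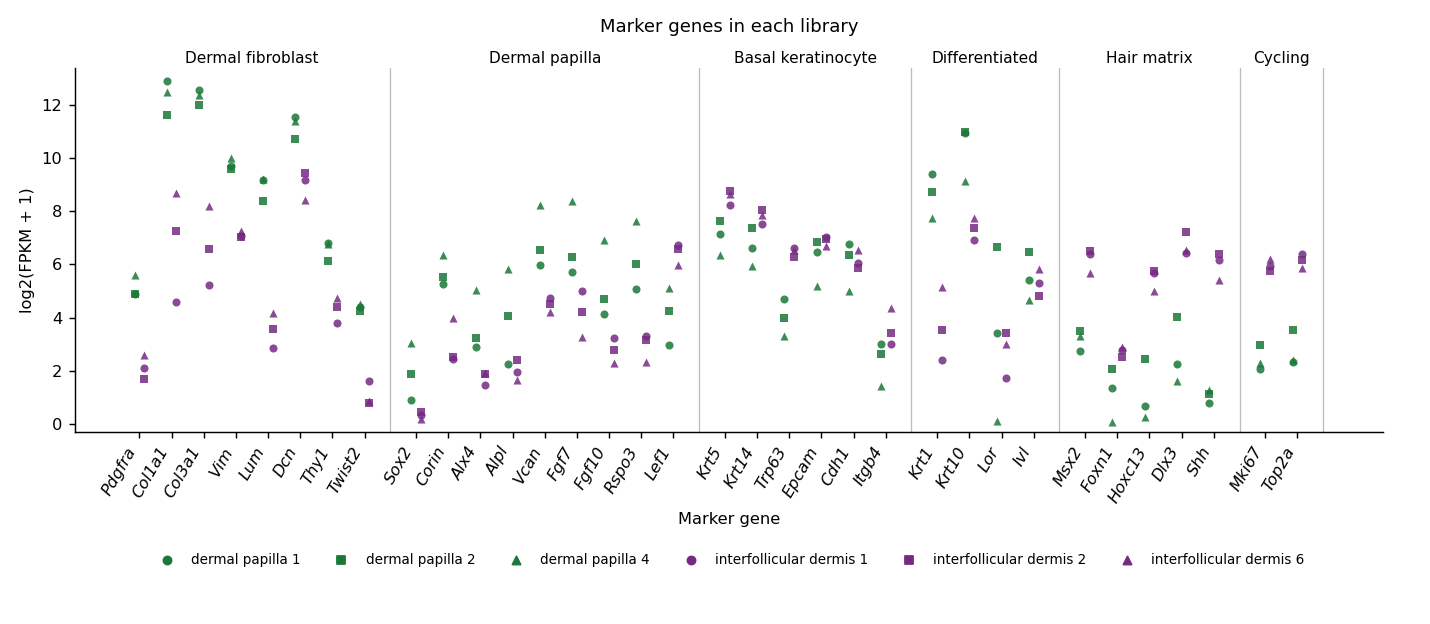
Levels of marker genes in each library, as log2(FPKM + 1), grouped by the cell type they mark. Green symbols are the 3 dermal papilla libraries, purple symbols the 3 labelled interfollicular dermis, and the shape gives the replicate. Pdgfra and Col1a1 lie higher in all 3 dermal papilla libraries, and Trp63, Shh and Mki67 in all 3 interfollicular dermis libraries.

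Of the 11783 genes tested, 5335 passed, which is 45.3%. In dermal papilla 1706 were higher (14.5%) and in interfollicular dermis 3629 (30.8%). Large differences leaned the other way: 577 genes higher in dermal papilla and 505 higher in interfollicular dermis passed with a log2 fold change of at least 2, and at 4 or more there were 79 and 14. In 1930 genes (16.4%) every dermal papilla library was above every interfollicular dermis library, and in 3988 (33.8%) the reverse held. At 1 FPKM or more in all 3 dermal papilla libraries and under 1 in all 3 interfollicular dermis libraries there were 299 genes, and 320 showed the reverse. With median-of-ratios scaling the median of all genes went from -0.36 to -0.04, and the split to 2442 higher (20.7%) and 2123 lower (18%). Quantile normalization gave 2188 higher and 2712 lower with a median of -0.14. Fold changes are to be read against the median of -0.36. Where either scaling ends or makes a named gene's call, or moves a list's count by over 1.5 times, this is said beside it.

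The 15 largest fold changes toward dermal papilla include several matrix genes. The rank covers genes that passed without overlap between the groups. It also required values above 0 in all 6 libraries and a mean of at least 5 FPKM in the higher group. Dpt, which encodes the matrix protein dermatopontin (chromosome 1, 164796663 to 164824274), had levels of 600.1, 378 and 582 FPKM in dermal papilla and 2.15, 5.14 and 13.9 FPKM in interfollicular dermis. None of these genes had a larger fold change (log2 fold change 6.27, SE 0.49, adjusted p = 2.88e-06). Col3a1, a fibrillar collagen chain, reached 6107, 4125 and 5287 against 36, 95 and 292 FPKM (5.65, adjusted p = 4.36e-05). Tnfaip6, a hyaluronan-binding protein, was at 473, 405 and 602 against 4.91, 7.28 and 17.8 FPKM (5.65, adjusted p = 6.4e-06), and Ogn, a leucine-rich proteoglycan, at 249, 177 and 305 against 3.5, 2.55 and 6.67 FPKM (5.59, adjusted p = 3.91e-06). Among the 15 largest were also Mfap5 (5.57) of elastic microfibrils, Col1a2 (5.3), the proteoglycan gene Aspn (5.28), the interferon-inducible Ifi205 (5.33), Gfpt2 (5.31) of hexosamine synthesis, the chemokine gene Ccl7 (5.26) and Gpx3 (5.18), a secreted glutathione peroxidase. Separation of the groups was a condition of the rank and is not a result for these genes.

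Several genes of the hair matrix are among the 15 largest fold changes toward interfollicular dermis, ranked in the same way. Genes listed at 0 in all 3 dermal papilla libraries, such as Rfc4, are therefore not ranked and are described further on. Shh, the hedgehog ligand that follicle epithelium secretes at the start of growth (chromosome 5, 28456840 to 28467101), had levels of 0.708, 1.2 and 1.4 FPKM in dermal papilla and 70.1, 83.7 and 41.5 FPKM in interfollicular dermis. The groups were far apart, with interfollicular dermis replicate 6 the lowest of its group (log2 fold change -4.93, SE 0.31, adjusted p = 6.6e-07). Hoxc13, a homeobox gene of hair shaft keratin control (chromosome 15, 102921131 to 102928814), was at 0.571, 4.4 and 0.18 against 49.8, 53.3 and 30.7 FPKM (-4.37, adjusted p = 5.43e-05). Krt35, a hair shaft keratin gene, was at 15.5, 37 and 5.81 against 365, 306 and 254 FPKM (-4.23, adjusted p = 4.68e-05). Kremen2, a receptor that binds Dickkopf proteins, was at 0.0525, 0.623 and 0.069 against 15, 38.2 and 18 FPKM (-4.23, adjusted p = 9.95e-06). The homeobox genes Dlx2 (-4.15), Dlx3 (-4.11) and Irx4 (-3.68) and the Sox family gene Sox21 (-3.62), which acts in hair shaft differentiation, were among the 15 largest. So were the adhesion gene Igsf9 (-3.76), the FGF-induced transcription factor gene Etv4 (-3.62) and the cell division genes Cenpa (-3.79), Incenp (-3.68) and Cdca3 (-3.65). The adult beta globin genes Hbb-bs (86.7, 415 and 11.4 against 1505, 3327 and 555 FPKM, -4.2, adjusted p = 0.0155) and Hbb-bt (-4.24) were also among the 15. They are near-identical copies whose reads can be split between them, so the value of each is uncertain. The Hbb-bs call ended without dermal papilla replicate 4 (adjusted p = 0.062) or interfollicular dermis replicate 2 (0.0667), and over all alternatives its adjusted p ran from 8.45e-08 to 0.0667. Alas2, a heme synthesis gene of red cells, was at 0.488, 0.754 and 0 against 20.3, 33.4 and 10.3 FPKM (-3.88, adjusted p = 4.98e-05). With a value of 0 in dermal papilla replicate 4 it was not ranked. The part of red cells in these differences was not tested.

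**Figure D2:**
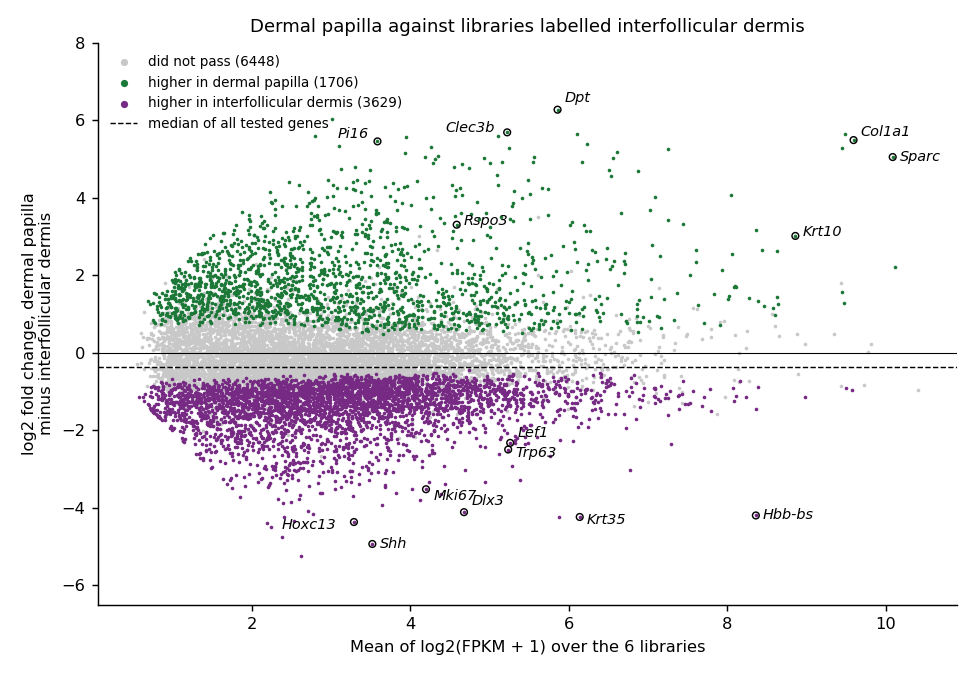
Log2 fold change (dermal papilla minus interfollicular dermis) against the mean of log2(FPKM + 1) over the 6 libraries, 1 point for each of 11783 genes. Green points passed higher in dermal papilla (1706), purple points higher in interfollicular dermis (3629), and the dashed line is the median of all genes at -0.36. Dpt and Col1a1 are at the top and Shh and Hoxc13 at the bottom.

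Mitosis and DNA replication genes were higher in interfollicular dermis, with 1 exception among those tested. Of 30 mitosis genes 30 were lower in dermal papilla (median -2.89), and of 29 tested DNA replication genes 28 were lower (median -2.37). Without Cdc20 and Rfc4, each listed at 0 in dermal papilla, the medians were -2.85 and -2.34. The counts were 30 and 28 under median-of-ratios scaling as well. Mki67, the proliferation marker that coats mitotic chromosomes, was read at 3.17, 6.74 and 3.94 FPKM in dermal papilla and 60.3, 52.3 and 72.7 FPKM in interfollicular dermis (log2 fold change -3.52, SE 0.32, adjusted p = 8.69e-06). Top2a, the DNA topoisomerase that untangles replicated chromosomes, was at 4.05, 10.5 and 4.3 against 82, 70.2 and 56.6 FPKM (-3.37, adjusted p = 9.78e-05). Cenpa, the histone variant of centromeres, was at 4.11, 5.76 and 2.01 against 75.8, 83.2 and 41.6 FPKM (-3.79, adjusted p = 2.04e-05). Each of these 3 genes was separated between the groups, and dermal papilla replicate 2 was the highest of its group in all 3.

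Promoters of mitosis genes are printed because this list passed as a whole and these promoters are known for 2 motifs. CCAAT is bound by the factor NF-Y, and TTTGAA, the cell cycle genes homology region, by the MuvB complexes that repress and activate mitotic genes. Both were searched on both strands (as CCAAT or ATTGG, and TTTGAA or TTCAAA) in the 250 bases before each start site given by RefSeq for GRCm38.p6. The 2 motifs can share a base where they abut. RefSeq promoters matched 27 of the 30 mitosis genes, with 28 promoters. CCAAT was in 21 of the 28 (75%), against 33.9% of all 32851 promoters of this length. TTTGAA was in 9 (32.1% against 16%) and both were in 8 (28.6% against 5.55%). Among promoters of all tested genes the shares were 34.5%, 10.7% and 3.85%. The 100 bases before the start site are shown for 3 of the 6 mitosis genes with the largest fold changes, each with a motif in its promoter, 5′ to 3′ on the gene's strand, with matches in capitals. A match is a description of the sequence and not a binding site.
Cenpa chr5:30666786-30666885 plus strand: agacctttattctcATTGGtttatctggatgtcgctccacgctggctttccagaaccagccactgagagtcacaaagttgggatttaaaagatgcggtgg
Mki67 chr7:135716380-135716479 minus strand: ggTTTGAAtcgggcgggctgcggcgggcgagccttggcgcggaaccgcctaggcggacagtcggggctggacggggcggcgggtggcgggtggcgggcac
Top2a chr11:99024190-99024289 minus strand: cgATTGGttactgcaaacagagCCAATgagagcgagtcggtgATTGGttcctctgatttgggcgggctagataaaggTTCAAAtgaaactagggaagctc
Within the 100 bases shown, Cenpa has 1 CCAAT match, from -86 to -82 relative to the start site. Mki67 has 1 TTTGAA match there, from -98 to -93. Top2a has 4 matches in the bases shown, 3 of CCAAT and 1 of TTTGAA from -23 to -18.

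Other genes of the division cycle followed. Birc5, the survivin subunit of the chromosomal passenger complex, was at 2.97, 4.86 and 1.58 against 41.8, 60.1 and 27.2 FPKM (-3.42, adjusted p = 6.47e-05), and the cyclin-dependent kinase gene Cdk1 at 0.66, 1.43 and 2.4 against 24.2, 27.7 and 12.9 FPKM (-3.17, adjusted p = 8.55e-05). In the replication list the largest with values in every library were Prim1, a DNA primase subunit (7.83, 4.26 and 0.429 against 54.2, 55.3 and 38.1 FPKM, -3.61, adjusted p = 0.000197), and Rrm2, which makes deoxyribonucleotides (0.917, 0.733 and 0.603 against 16, 19.8 and 12.9 FPKM, -3.29, adjusted p = 3.1e-05). The helicase subunit gene Mcm5 was at 2.76, 4.68 and 0.962 against 23.2, 37.5 and 29 FPKM (-3.13, adjusted p = 5.7e-05). Only Pcna did not pass among the 29 (1.63, 0.441 and 1.1 against 2.79, 1.75 and 1.89 FPKM, -0.64, adjusted p = 0.15). Its values are near the filter of 1 FPKM in both groups, so its level is uncertain. Of 20 G1 cyclins, kinases and inhibitors, 12 were lower in dermal papilla, among them Ccna2 (-3.35), E2f2 (-2.98), Ccnd2 (-2.92) and Cdk4 (-2.19). The cell cycle inhibitor gene Cdkn1c was the 1 member higher in dermal papilla (8.11, 19.95 and 22.2 against 7.22, 9.16 and 4.5 FPKM, 1.09, adjusted p = 0.0463). Its call ended without dermal papilla replicate 2 (adjusted p = 0.133), dermal papilla replicate 4 (0.143), interfollicular dermis replicate 1 (0.084) or interfollicular dermis replicate 6 (0.148), and over all alternatives its adjusted p ran from 0.0106 to 0.206.

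Markers of the dermal papilla were mostly higher in the libraries that carry its name. Of 35 listed, 32 were tested, of which 20 were higher in dermal papilla, 1 was lower and 11 did not pass (median 2.04). Corin, a serine protease of the papilla that acts on coat colour (chromosome 5, 72299948 to 72504540), had levels of 37.7, 45.6 and 81.3 FPKM in dermal papilla and 4.35, 4.73 and 15 FPKM in interfollicular dermis. All 3 dermal papilla libraries were above all others (log2 fold change 2.75, SE 0.50, adjusted p = 0.000901). Rspo3, a secreted enhancer of Wnt signalling (chromosome 10, 29453106 to 29535867), was at 32.4, 63.8 and 198 against 8.94, 8.01 and 3.99 FPKM (log2 fold change 3.3, SE 0.52, adjusted p = 0.000362). Vcan, a large proteoglycan of the papilla matrix, was at 61.8, 92.9 and 302 against 25.4, 21.8 and 17.7 FPKM (2.44, adjusted p = 0.00212). Enpp2, the lysophosphatidic acid enzyme autotaxin, was at 100.1, 176 and 479.7 against 42.8, 34.5 and 34.7 FPKM (2.43, adjusted p = 0.00498), and the homeobox gene Alx4 at 6.37, 8.4 and 32.1 against 1.78, 2.63 and 2.71 FPKM (1.98, adjusted p = 0.0112). Alpl, the alkaline phosphatase used to stain papillae, was at 3.76, 15.5 and 56.1 against 2.86, 4.23 and 2.14 FPKM (2.05, adjusted p = 0.038). Dermal papilla replicate 1 overlapped interfollicular dermis in Alpl, and the call ended without dermal papilla replicate 2 (adjusted p = 0.0737), dermal papilla replicate 4 (0.151), interfollicular dermis replicate 1 (0.0871), interfollicular dermis replicate 2 (0.0609) or interfollicular dermis replicate 6 (0.0966), and over all alternatives its adjusted p ran from 0.00209 to 0.151. Prdm1, a repressor gene of papilla precursors, was at 22, 16.8 and 15.2 against 9.03, 6.08 and 8.14 FPKM (1.12, adjusted p = 0.00304). Lef1, a Wnt effector that both papilla and hair matrix express, was the 1 member higher in interfollicular dermis (6.72, 17.9 and 33.6 against 105, 94.6 and 61.4 FPKM, log2 fold change -2.32, SE 0.53, adjusted p = 0.00387). Wif1, a Wnt inhibitor of the papilla, was at 139.7, 244 and 710.0 against 156, 170.1 and 87.4 FPKM and did not pass (1.12, adjusted p = 0.181).

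Dermal papilla replicate 4 stood apart from the other 2 libraries of its group. It was the highest of the 3 for 28 of the 32 tested papilla markers, against 32.9% of all tested genes. Summed over the list, papilla markers held 973, 1559 and 4217 FPKM in replicates 1, 2 and 4, and 398 to 598 in interfollicular dermis. Crabp1, a retinoic acid binding protein of the papilla, was at 86.2, 211 and 636 against 56.6, 40.01 and 17.1 FPKM (2.7, adjusted p = 0.00617). In the same library several lists of other cell types were low: it had the least of the 3, as it had for 42.5% of all tested genes, for 19 of 20 basal keratinocyte genes, 18 of 19 genes of differentiated epidermis, 17 of 20 immune genes and 13 of 13 endothelial genes. Differentiated epidermis summed to 7295, 7585 and 2027 FPKM in replicates 1, 2 and 4, immune genes to 1549, 808 and 519, and endothelial genes to 148, 250 and 22.5. Not every list did so. Replicate 4 was lowest for 5 of 19 bulge and outer root sheath genes and highest for 5, and the sums of Schwann cell genes (264, 389 and 269) and of smooth muscle and sheath genes (382, 709.8 and 530.3) were lowest in replicate 1. With replicates 1 and 2 both left out, an alternative chosen after seeing the data, 4361 genes passed, 1308 higher and 3053 lower in dermal papilla. Dermal papilla is then 1 library, which is assumed to vary like those of the other groups. Among the genes that no longer passed in that fit, the fold change was 0.90 for Prdm1 (adjusted p = 0.0596), -1.31 for Lef1 (0.112), 1.19 for Acta2 (0.0549), 1.81 for Krt10 (0.127) and 3.99 for C1qb (0.0512), and Wif1 passed at 2.41 (0.0401). The part of other cells in the differences described was not tested.

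**Figure D3:**
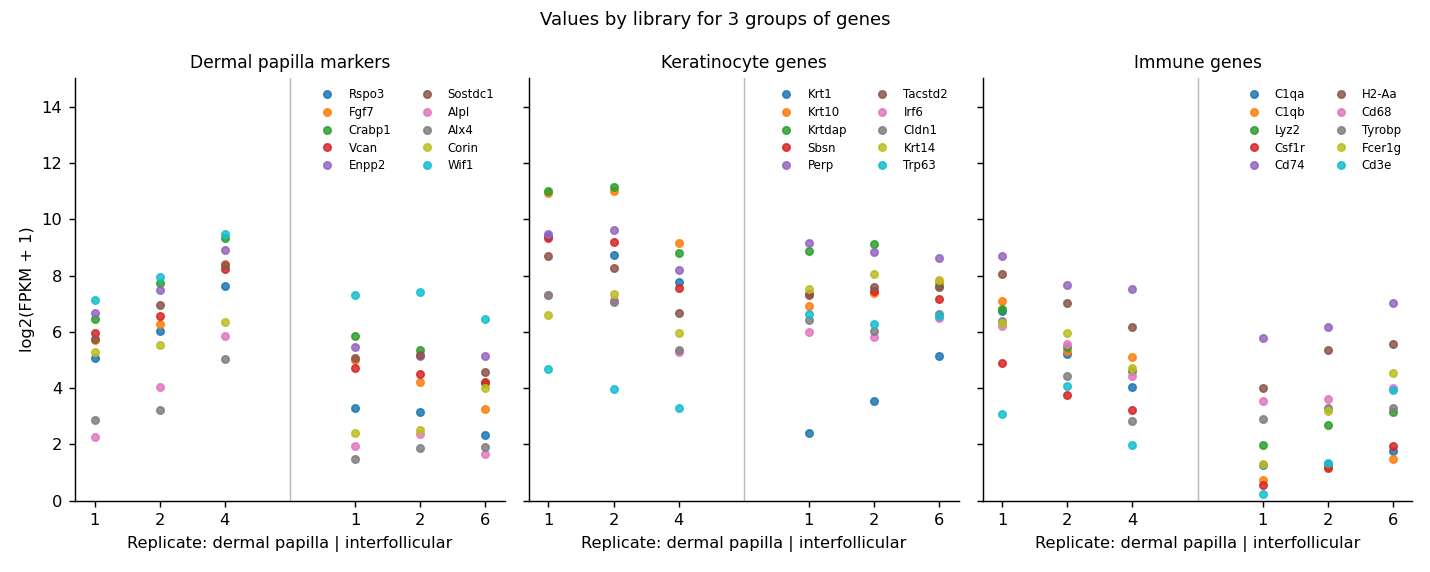
Levels of 10 papilla markers, 10 keratinocyte genes and 10 immune genes as log2(FPKM + 1), 1 point per library, by replicate number, with dermal papilla on the left of each panel and interfollicular dermis on the right. Replicate 4 of dermal papilla is the highest of its group for Rspo3, Vcan and Crabp1 and the lowest for Krt10 and Cd74.

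Wnt signalling genes ran both ways. R-spondins act by binding LGR receptors and removing the ligases Znrf3 and Rnf43, which otherwise clear Wnt receptors from the cell surface. All 4 R-spondin genes were higher in dermal papilla and separated between the groups. Rspo1 was at 23.9, 32.3 and 115 against 1.92, 7.13 and 3.65 FPKM (3.26, adjusted p = 0.000716), Rspo2 at 8.03, 12.3 and 43.1 against 4.31, 3.56 and 2.55 FPKM (1.98, adjusted p = 0.00449) and Rspo4 at 23.8, 22.4 and 85.8 against 2.32, 1.03 and 5.45 FPKM (3.39, adjusted p = 0.000958). Dermal papilla replicate 4 had the most of each. The ligase genes ran the other way, with Rnf43 at 0.734, 0.677 and 0.83 against 8.01, 8.07 and 8.52 FPKM (log2 fold change -2.4, SE 0.24, adjusted p = 1.55e-05) and Znrf3 at 1.93, 3.59 and 1.06 against 6.38, 8.67 and 9.78 FPKM (-1.6, adjusted p = 0.00162). Among the receptors Lgr4 (7.83, 12.5 and 18.6 against 18.4, 18.3 and 21.9 FPKM, -0.62, adjusted p = 0.115) and Lgr5 (1.92, 2.2 and 2.48 against 3.13, 2.83 and 3.37 FPKM, -0.36, adjusted p = 0.468) did not pass. Lgr6 was higher in interfollicular dermis (-1.01), but its call was lost under either scaling and ended without dermal papilla replicate 1 (adjusted p = 0.0747), dermal papilla replicate 4 (0.0642), interfollicular dermis replicate 1 (0.053) or interfollicular dermis replicate 6 (0.0756), and over all alternatives its adjusted p ran from 0.00687 to 0.157.

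Secreted Wnt antagonists were mostly higher in dermal papilla, 7 of 10 tested, with 1 lower and a median of 2.0. Sfrp2, a decoy that binds Wnt ligands (chromosome 3, 83765750 to 83774314), had levels of 189, 179 and 153 FPKM in dermal papilla and 4.09, 6.67 and 2.98 FPKM in interfollicular dermis (log2 fold change 5.02, SE 0.37, adjusted p = 2.25e-06). Its relative Sfrp4 was at 109.7, 109 and 60.8 against 2.51, 0.588 and 1.99 FPKM (log2 fold change 5.15, SE 0.37, adjusted p = 1.81e-06), with dermal papilla replicate 4 the lowest of its group in both. Frzb (2.86), Sfrp1 (2.31), Sostdc1 (2.08), Dkk2 (1.93) and Dkk3 (1.33) were also higher. Kremen1, a Dickkopf receptor, was lower (13.7, 15.7 and 16.3 against 38.6, 41.6 and 34.8 FPKM, -1.27, adjusted p = 0.000181). Of 10 tested Wnt ligand genes 5 were higher in interfollicular dermis and 1 in dermal papilla (50% and 10%, against 30.8% and 14.5% of all tested genes). Wnt10b, a ligand of hair follicle epithelium, was at 1.52, 3.56 and 0.0328 against 19.4, 18.2 and 16.3 FPKM (log2 fold change -3.05, SE 0.47, adjusted p = 0.000332), Wnt4 at 3.62, 2.23 and 0.994 against 12.7, 21.3 and 17.2 FPKM (-2.51, adjusted p = 0.000258) and Wnt10a at 0.17, 0.567 and 2.24 against 8.25, 11.1 and 5.78 FPKM (-2.33, adjusted p = 0.000548). Wnt2 was the 1 ligand gene higher in dermal papilla (7.01, 8.97 and 2.63 against 0, 0.0889 and 0.216 FPKM, 2.59, adjusted p = 0.000149). Wnt5a, a ligand that papilla and dermis are known to express, did not pass (8.45, 14.4 and 20.7 against 28.8, 26.4 and 21.1 FPKM, -0.84, adjusted p = 0.132). Of 14 frizzled and co-receptor genes 1 was higher, Fzd4 (1.29), and 3 were lower (7.14% and 21.4%, against 14.5% and 30.8% of all tested genes). The lower were Fzd10 (1.77, 3.49 and 0.807 against 18.5, 28.6 and 20.4 FPKM, -3.04, adjusted p = 1.95e-05), Fzd7 (-1.84) and Fzd6 (-1.51). The number higher was 2 under either scaling or without dermal papilla replicate 1. Genes that Wnt signalling induces were lower in dermal papilla in 6 of 13 cases and higher in 0, and under median-of-ratios scaling 5 were lower and 2 higher. Besides Lef1, Rnf43 and Znrf3 these were Tnfrsf19 (5.14, 7.46 and 4.85 against 48, 48.9 and 40.3 FPKM, -2.79, adjusted p = 4.02e-06), Ccnd1 (-2.12) and Tcf7 (-1.26), of which Tcf7 was lost under that scaling.

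BMP antagonists were higher in dermal papilla in 9 of 11 cases and lower in 0 (median 1.98). These secreted proteins bind BMP ligands, which hold follicle stem cells at rest. Chrdl1 was at 21.3, 20.4 and 11.8 against 0.107, 0.213 and 0.493 FPKM (log2 fold change 3.86, SE 0.32, adjusted p = 5.1e-06), and Fstl1 at 478, 485 and 713 against 24.8, 29.1 and 48.4 FPKM (4.03, adjusted p = 2.65e-06). Nog, the antagonist noggin of the papilla, was at 5.4, 6.72 and 11.9 against 0.166, 2.01 and 0.787 FPKM (2.22, adjusted p = 0.00326). Chrd, at 2.93, 3.8 and 3.5 against 0.0195, 0.0574 and 0.286 FPKM (1.98, adjusted p = 5.87e-05), was low in both groups. Fst, an activin and BMP binder, had a smaller difference (52.1, 76.5 and 79.4 against 33.8, 33.5 and 49 FPKM, 0.82, adjusted p = 0.025), and that call ended without dermal papilla replicate 2 (adjusted p = 0.0709), dermal papilla replicate 4 (0.0725), interfollicular dermis replicate 1 (0.0807) or interfollicular dermis replicate 2 (0.0837), and over all alternatives its adjusted p ran from 0.00397 to 0.0837. Of 8 tested genes listed as BMP ligands 3 were higher in dermal papilla and 1 lower (37.5% and 12.5%, against 14.5% and 30.8% of all tested genes). The higher were Gdf10 (2.57), Bmp3 (2.39) and Bmp1 (1.92), of which Bmp1 encodes a procollagen protease and not a ligand. Bmp2 (0.39), Bmp4 (0.091) and Bmp7 (-0.25) did not pass. Bmp8a was lower (-0.78), a call that was lost under either scaling. That call also ended without dermal papilla replicate 4 (adjusted p = 0.143), interfollicular dermis replicate 1 (0.0555), interfollicular dermis replicate 2 (0.148) or interfollicular dermis replicate 6 (0.0557), and over all alternatives its adjusted p ran from 0.0143 to 0.312. Bmp6, at 1.84, 6.28 and 22.8 against 1.3, 1.62 and 3.76 FPKM, did not pass (1.37, adjusted p = 0.0843) but did without dermal papilla replicate 1 and under median-of-ratios scaling. Of 9 BMP response genes 3 had lower levels in dermal papilla and 0 higher (33.3% lower, near the 30.8% of all tested genes). Id1 was at 7.73, 22.2 and 35 against 110.3, 119 and 71.3 FPKM (-2.35, adjusted p = 0.00194), and the homeobox genes Msx1 at 2.76, 2.37 and 3.64 against 32, 74.9 and 29.8 FPKM (-3.45, adjusted p = 0.00013) and Msx2 at 5.7, 10.2 and 8.99 against 83.5, 91 and 50.8 FPKM (-3.02, adjusted p = 9.78e-05). Both Msx genes also belong to the hair matrix. Without dermal papilla replicate 4 the count of lower genes was 5.

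Of 12 hedgehog genes 3 were higher and 3 lower, 25% each, against 14.5% and 30.8% of all tested genes. The ligand gene Shh, described above, was among the lower. Gli1, the transcriptional effector, was at 6.4, 7.38 and 12.4 against 10.5, 20.7 and 22.2 FPKM (-0.93, adjusted p = 0.0258), a call that either scaling removed and that ended without dermal papilla replicate 1 (adjusted p = 0.0958), dermal papilla replicate 2 (0.0699), interfollicular dermis replicate 2 (0.0935) or interfollicular dermis replicate 6 (0.0883), and over all alternatives its adjusted p ran from 0.00658 to 0.438. Ptch1, a receptor and target, did not pass (6.49, 7.58 and 17.6 against 10.3, 12 and 24.4 FPKM, -0.55, adjusted p = 0.287). Hhip, a decoy receptor of the papilla, was higher there (13.5, 27 and 93.9 against 6.22, 6.06 and 9.05 FPKM, 2.08, adjusted p = 0.0129), as were the co-receptor genes Gas1 (8.32, 12.5 and 10.9 against 2.08, 2.0 and 2.53 FPKM, 1.84, adjusted p = 0.000325) and Cdon (1.58). Without dermal papilla replicate 4 the lower genes numbered 5.

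FGF ligand genes of the papilla were higher there. Fgf7, which acts on the epithelial receptor Fgfr2, was read at 51.4, 76.1 and 335 FPKM in dermal papilla and 31.1, 17.5 and 8.52 FPKM in interfollicular dermis. The dermal papilla values spanned a wide range, with replicate 4 the highest, and the groups did not overlap (log2 fold change 2.63, SE 0.76, adjusted p = 0.0134). The call ended without dermal papilla replicate 4 (adjusted p = 0.0531) or interfollicular dermis replicate 6 (0.0541), and over all alternatives its adjusted p ran from 0.00402 to 0.0541. Fgf10, its close relative, was at 16.6, 24.8 and 119 against 8.5, 5.86 and 3.87 FPKM (2.48, adjusted p = 0.00489), and Fgf18 at 2.67, 7.23 and 4.7 against 0.166, 0.703 and 0.375 FPKM (1.99, adjusted p = 0.000806). Of 6 tested ligand genes 4 were higher, the last of them Fgf11 (0.91), whose call ended without dermal papilla replicate 1 (adjusted p = 0.0535) or interfollicular dermis replicate 2 (0.0513), and over all alternatives its adjusted p ran from 0.0059 to 0.117. The receptor Fgfr1 was higher in dermal papilla (37.6, 43.5 and 59.1 against 11.3, 16.4 and 20.5 FPKM, 1.5, adjusted p = 0.000545), while Fgfr2 (17.1, 21.1 and 31.3 against 42.6, 36.9 and 47.7 FPKM, -0.88, adjusted p = 0.00818) and Fgfr3 (2.99, 5.31 and 6.49 against 12.5, 10.7 and 17 FPKM, -1.3, adjusted p = 0.0113), both receptors of epithelium, were higher in interfollicular dermis. The Fgfr2 call was lost under median-of-ratios scaling, and that of Fgfr3 ended without dermal papilla replicate 1 (adjusted p = 0.0502), and over all alternatives its adjusted p ran from 0.00918 to 0.167. All 11 receptor and feedback genes passed, 6 higher and 5 lower, and under median-of-ratios scaling 6 were higher and 2 lower. Etv4 had the largest difference of them (0.975, 0.505 and 2.16 against 22.4, 49.7 and 13.9 FPKM, log2 fold change -3.62, SE 0.55, adjusted p = 0.000294).

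**Figure D4:**
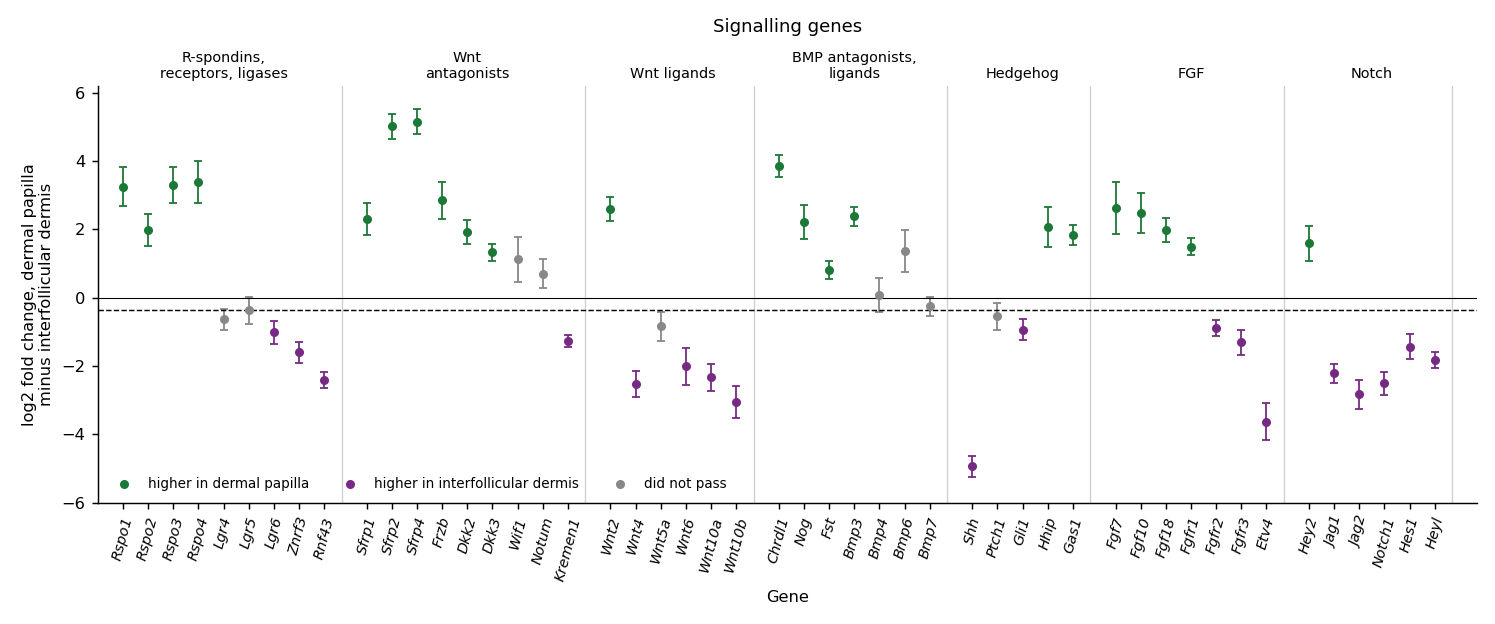
Log2 fold change (points) with its standard error (bars) for 49 signalling genes, grouped by pathway. Green points passed higher in dermal papilla, purple points higher in interfollicular dermis and grey points did not pass, and the dashed line is the median of all genes at -0.36. R-spondin genes are above 0 and Rnf43, Wnt10b, Shh and Notch1 below.

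Notch pathway genes were higher in interfollicular dermis in 7 of 14 cases and in dermal papilla in 1 (median -1.07, or -0.72 without Hes5, which was listed at 0 in dermal papilla). These are 50% and 7.14%, against 30.8% and 14.5% of all tested genes. The receptor gene Notch1 was at 5.08, 11.2 and 6.17 against 32.2, 46.2 and 61.7 FPKM (log2 fold change -2.51, SE 0.34, adjusted p = 0.000141), the ligand genes Jag2 at 0.986, 1.23 and 1.57 against 9.52, 14.3 and 24.3 FPKM (-2.83, adjusted p = 0.000234) and Jag1 at 12.3, 22.1 and 13 against 78.2, 60.1 and 87.2 FPKM (-2.21, adjusted p = 9.36e-05), and the effector gene Hes1 at 28.8, 62 and 34.7 against 129, 155 and 63.5 FPKM (-1.43, adjusted p = 0.00655). Heyl also was higher in interfollicular dermis (-1.83). Hes5 was listed at 0 in all 3 dermal papilla libraries and at 9.29, 7.53 and 1.53 FPKM in interfollicular dermis. Hey2, an effector, was the 1 member higher in dermal papilla (7.5, 5.1 and 32.1 against 3.76, 3.18 and 2.16 FPKM, 1.59, adjusted p = 0.0234), and that call ended without dermal papilla replicate 4 (adjusted p = 0.065), interfollicular dermis replicate 2 (0.0544) or interfollicular dermis replicate 6 (0.0697), and over all alternatives its adjusted p ran from 0.000683 to 0.154.

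Other growth factor genes were largely higher in dermal papilla. Of 16 IGF and PDGF genes 10 were higher and 1 lower. Igf1, a growth factor that fibroblasts supply to epithelium, was at 39.6, 35.8 and 50.5 against 0.832, 1.14 and 2.14 FPKM (log2 fold change 4.2, SE 0.28, adjusted p = 1.16e-06), and the binding protein genes Igfbp6 at 203, 135 and 98.6 against 4.12, 2.23 and 7.1 FPKM (4.78, adjusted p = 3.91e-06) and Igfbp3 at 224, 223 and 188 against 13.2, 18.3 and 30.9 FPKM (3.36, adjusted p = 4.79e-05). Pdgfa, the ligand that epithelium sends to Pdgfra, was the 1 gene lower (9.17, 17.5 and 7.89 against 36.5, 52.6 and 25.6 FPKM, -1.66, adjusted p = 0.00252). Of 18 TGF-beta and activin genes 8 had higher levels in dermal papilla and 1 lower, with 11 and 1 under median-of-ratios scaling. Inhba, an activin subunit of the papilla, was at 40.7, 61.6 and 166 against 8.15, 7.35 and 12.7 FPKM (2.9, adjusted p = 0.000679), Tgfbr3 at 28.7, 25.8 and 26.6 against 3.32, 3.22 and 6.32 FPKM (2.45, adjusted p = 2.77e-05) and Tgfbr2 at 45.7, 31.1 and 21.6 against 4.17, 4.46 and 10.04 FPKM (2.25, adjusted p = 0.000169). Acvr2b, an activin receptor, was lower (0, 0.0408 and 0.0429 against 1.35, 3.98 and 2.47 FPKM, -1.74, adjusted p = 0.00095).

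Of 15 retinoic acid genes 4 were higher and 5 lower (26.7% and 33.3%, against 14.5% and 30.8% of all tested genes), and 2 were lower without dermal papilla replicates 1 and 2 together. The carriers Rbp4 (13.3, 15.7 and 4.56 against 0.55, 0.809 and 0.284 FPKM, 2.84, adjusted p = 0.000317) and Crabp2 (1.61) and the degrading enzyme gene Cyp26b1 (1.56) were higher in dermal papilla with Crabp1. The synthesis enzyme gene Aldh1a3 (1.76, 8.4 and 9.86 against 39.6, 34.1 and 14.4 FPKM, -2.09, adjusted p = 0.00804), the uptake receptor gene Stra6 (-2.16) and Cyp26a1 (-1.38) were among those higher in interfollicular dermis. Axon guidance genes passed in 17 of 27 cases, 12 higher in dermal papilla and 5 lower (44.4% and 18.5%, against 14.5% and 30.8% of all tested genes). The semaphorin gene Sema3c was at 39.9, 44.2 and 25.8 against 4.0, 1.95 and 5.8 FPKM (2.98, adjusted p = 4.62e-05) and Slit2 at 4.82, 5.17 and 6.41 against 0.219, 0.479 and 1.13 FPKM (2.04, adjusted p = 0.000117). Unc5b, a netrin receptor, was higher in interfollicular dermis (2.14, 4.16 and 1.95 against 21, 25.7 and 22.3 FPKM, -2.72, adjusted p = 2.91e-05), as were Nrp2 (-2.11) and the ephrin genes Efnb2 (-1.84) and Efnb1 (-1.76).

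Chemokine genes were higher in dermal papilla in 9 of 15 cases and lower in 0 (median 2.24). Ccl2, which attracts monocytes, was read at 1249.9, 1438 and 697 against 57.1, 50.2 and 89.96 FPKM (log2 fold change 4.06, SE 0.57, adjusted p = 0.000178), Cxcl1, which attracts neutrophils, at 1112, 1059.9 and 800.5 against 94.6, 86.7 and 157 FPKM (3.16, adjusted p = 1.34e-05) and Cxcl12, a ligand of Cxcr4, at 72, 81.9 and 94.7 against 26.4, 18.7 and 29.5 FPKM (1.71, adjusted p = 0.000366). Ackr3, a scavenger receptor, was at 99.2, 71.4 and 44.8 against 4.87, 4.76 and 6.24 FPKM (3.47, adjusted p = 6.4e-06). Immune cell genes were present beside them, as described further on. Among 17 growth factors and pigment signals 8 were higher and 2 lower. Postn, a matricellular protein, was at 541, 546 and 716 against 20.4, 11.7 and 44 FPKM (4.7, adjusted p = 8.69e-06), and Edn3, an endothelin that acts on melanocytes, at 10.7, 22.7 and 58.6 against 5.73, 5.54 and 4.09 FPKM (2.07, adjusted p = 0.0105). Ptn, a heparin-binding growth factor, was higher in interfollicular dermis (6.29, 28.9 and 9.11 against 44.3, 50.2 and 45.9 FPKM, -1.87, adjusted p = 0.00574). So was Kitl, the ligand of Kit (-1.04), whose call was lost under either scaling and ended without dermal papilla replicate 1 (adjusted p = 0.122), dermal papilla replicate 4 (0.144), interfollicular dermis replicate 1 (0.185) or interfollicular dermis replicate 2 (0.0778), and over all alternatives its adjusted p ran from 0.0134 to 0.185. Hgf, hepatocyte growth factor, was at 2.36, 2.04 and 1.46 against 0, 0 and 0.265 FPKM (1.44, adjusted p = 0.00272).

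Of 24 tested transcription factors of dermal condensate and papilla 16 were higher in dermal papilla and 1 lower (median 1.58). Twist1, a helix-loop-helix factor of mesenchyme, was at 46.5, 56.9 and 115 against 6.78, 8.83 and 9.0 FPKM (log2 fold change 2.9, SE 0.37, adjusted p = 8.26e-05), and Twist2 at 20.3, 17.8 and 21.6 against 2.05, 0.717 and 0.824 FPKM (3.3, adjusted p = 2.68e-06). The homeobox gene Prrx1 was at 38.5, 47.3 and 81.9 against 3.98, 4.43 and 5.61 FPKM (3.26, adjusted p = 6.61e-05), Tbx15 of the dermis at 22.7, 26.9 and 37.3 against 2.4, 3.44 and 4.35 FPKM (2.76, adjusted p = 6.47e-05) and Osr2 at 49.9, 30.1 and 38.9 against 0.187, 1.04 and 2.75 FPKM (4.25, adjusted p = 1.03e-05). Foxp1 was the 1 factor lower (8.83, 10.4 and 3.26 against 23.5, 28.1 and 16.9 FPKM, -1.58, adjusted p = 0.00628), and 2 were lower without dermal papilla replicate 4. Of 26 tested epithelial factors 15 were lower in dermal papilla and 2 higher (median -1.29), with 14 and 4 under median-of-ratios scaling and 4 higher without dermal papilla replicate 4. Lhx2, of follicle stem cells, was at 2.19, 3.3 and 0.981 against 29.2, 47.3 and 18.2 FPKM (log2 fold change -3.34, SE 0.53, adjusted p = 0.000387), Grhl2 at 1.12, 1.22 and 0.118 against 13.8, 12.9 and 16.3 FPKM (-3.13, adjusted p = 1.49e-05) and Tfap2b at 1.9, 5.61 and 1.39 against 18.9, 18.1 and 11.2 FPKM (-2.23, adjusted p = 0.00161). The 2 higher were Elf3 (1.31) and Klf4 (0.89), factors of differentiating epidermis. The call of Elf3 ended without dermal papilla replicate 1 (adjusted p = 0.0743), dermal papilla replicate 2 (0.0865) or interfollicular dermis replicate 1 (0.0971), and over all alternatives its adjusted p ran from 0.000207 to 0.539. That of Klf4 ended without dermal papilla replicate 1 (adjusted p = 0.101), dermal papilla replicate 4 (0.0571), interfollicular dermis replicate 1 (0.0834) or interfollicular dermis replicate 2 (0.0869), and over all alternatives its adjusted p ran from 0.00541 to 0.11.

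Hox genes, which record position along the body, were more often lower than higher in dermal papilla. Of 26 tested 3 were higher in dermal papilla and 12 lower (median -0.90), with 4 and 9 under median-of-ratios scaling. The share higher was below the 14.5% of all tested genes, and the share lower was above their 30.8%. Under that scaling the same held against 20.7% and 18% of all tested genes. The 3 higher are all of the HoxC cluster: Hoxc10 at 3.6, 3.88 and 19.9 against 0.969, 1.25 and 1.61 FPKM (1.78, adjusted p = 0.0133), Hoxc4 at 5.21, 5.11 and 12.2 against 1.71, 1.92 and 1.34 FPKM (1.58, adjusted p = 0.00504) and Hoxc6 at 9.87, 13.3 and 30.2 against 6.5, 9.57 and 5.22 FPKM (1.1, adjusted p = 0.0291). Dermal papilla replicate 4 had the most of each, and the Hoxc6 call ended without dermal papilla replicate 4 (adjusted p = 0.111), interfollicular dermis replicate 1 (0.0748) or interfollicular dermis replicate 6 (0.0906), and over all alternatives its adjusted p ran from 0.00376 to 0.287. Without dermal papilla replicate 1 the number higher was 5. Apart from Hoxc13, the lower genes are of the other 3 clusters, among them Hoxb7 (0.131, 2.68 and 1.55 against 19.4, 19 and 7.02 FPKM, -2.76, adjusted p = 0.000952), Hoxb6 (1.22, 5.25 and 2.21 against 13.9, 30.9 and 14.9 FPKM, -2.47, adjusted p = 0.000651), Hoxb8 (-2.42) and Hoxa5 (0.947, 4.33 and 5.33 against 14.6, 22.1 and 6.81 FPKM, -1.81, adjusted p = 0.00877). The difference between clusters was not tested.

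Collagen genes and those of the enzymes that process collagen were mostly higher in dermal papilla. Of 26 tested collagen chains 23 were higher and 0 lower (median 2.15), and the list summed to 11493 to 20563 FPKM against 191 to 1282 in interfollicular dermis. Col5a1, which starts fibrils, was at 107, 97.8 and 98.5 against 1.81, 4.94 and 9.31 FPKM (4.2, adjusted p = 5.88e-06), Col6a1 of beaded filaments at 249, 181 and 235 against 5.1, 11.9 and 19.1 FPKM (4.24, adjusted p = 6.57e-06) and Col14a1, which sits on fibrils, at 67.5, 67 and 106 against 1.92, 1.75 and 5.07 FPKM (4.44, adjusted p = 5.88e-06). The 3 chains that did not pass, Col7a1, Col17a1 and Col18a1, are of the epithelial basement membrane zone or, for Col18a1, of basement membranes at large. Enzymes that modify and crosslink collagen were higher in 19 of 19 cases (median 3.10). Lox, the crosslinking oxidase, was at 109.9, 91.8 and 109.5 against 0.80, 1.44 and 6.27 FPKM (log2 fold change 5.04, SE 0.42, adjusted p = 5.1e-06), Pcolce, an enhancer of procollagen cleavage, at 625, 384 and 635 against 9.51, 17 and 22.9 FPKM (5.02, adjusted p = 5.28e-07) and Serpinh1, the collagen chaperone, at 401, 281 and 369 against 34.3, 53.7 and 64.9 FPKM (2.79, adjusted p = 1.73e-05). The smallest difference was that of Plod3, a lysyl hydroxylase (0.87).

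Proteoglycan genes were higher in 14 of 19 cases and lower in 1, and elastic fibre and matricellular genes in 20 of 23 and 1. The single lower genes, the glypican gene Gpc1 (-1.03) and the tenascin gene Tnc (-0.93), were lost under either scaling. For Gpc1 the call ended without dermal papilla replicate 4 (adjusted p = 0.141), interfollicular dermis replicate 1 (0.0631), interfollicular dermis replicate 2 (0.112) or interfollicular dermis replicate 6 (0.063), and over all alternatives its adjusted p ran from 0.00646 to 0.148. For Tnc it ended without dermal papilla replicate 1 (adjusted p = 0.105), dermal papilla replicate 4 (0.0974), interfollicular dermis replicate 2 (0.0804) or interfollicular dermis replicate 6 (0.095), and over all alternatives its adjusted p ran from 0.0134 to 0.18. Sparc, a collagen-binding protein and the most abundant gene in dermal papilla, was at 7960.0, 4673 and 6604 against 93, 187 and 382 FPKM (log2 fold change 5.05, SE 0.49, adjusted p = 1.34e-05). Fbn1, the fibrillin of microfibrils, was at 109, 104 and 109 against 2.35, 3.43 and 11.4 FPKM (4.25, adjusted p = 2.6e-05), Eln, elastin, at 82.8, 103 and 58.5 against 3.84, 7.0 and 7.96 FPKM (3.52, adjusted p = 4.02e-06) and Bgn, biglycan, at 613, 349.6 and 587 against 36.9, 49.7 and 51.6 FPKM (3.43, adjusted p = 1.06e-05). Matrix proteases and their inhibitors were higher in 14 of 20 cases and lower in 1, led by Mmp2 (237, 136 and 140.1 against 2.48, 4.51 and 16.7 FPKM, 4.58, adjusted p = 3.33e-05), Mmp23 (4.42) and Mmp3 (3.8). Timp2, an inhibitor, was at 285, 212 and 201 against 18.2, 21.8 and 28 FPKM (3.31, adjusted p = 1.16e-06). Adamts3, a procollagen protease, was the 1 lower (-0.88), a call that was lost under either scaling and ended without dermal papilla replicate 1 (adjusted p = 0.0754), dermal papilla replicate 4 (0.0716), interfollicular dermis replicate 1 (0.0769) or interfollicular dermis replicate 6 (0.0635), and over all alternatives its adjusted p ran from 0.0212 to 0.188.

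Basement membrane and integrin genes were more often higher than lower in dermal papilla. Of 19 basement membrane genes 9 had higher levels in dermal papilla and 3 lower (47.4% and 15.8%, against 14.5% and 30.8% of all tested genes). Nid1, which links laminin to collagen, was at 121, 117 and 116 against 7.45, 6.91 and 16.1 FPKM (3.51, adjusted p = 1.3e-05), and the laminin chains Lama2 at 29.5, 25.8 and 41.7 against 3.64, 2.07 and 7.2 FPKM (2.74, adjusted p = 0.000676) and Lama4 at 25.9, 28.7 and 29 against 2.54, 3.31 and 11.9 FPKM (2.31, adjusted p = 0.00251). Lama5, the laminin chain of epithelium, was higher in interfollicular dermis (1.09, 2.12 and 0.93 against 8.87, 13.9 and 21.2 FPKM, log2 fold change -2.67, SE 0.36, adjusted p = 0.000131), as were Agrn (-1.67) and Npnt (-1.64). Of 15 integrin genes 8 were higher and 2 lower (53.3% and 13.3%). The higher included Itga5 (1.8) and Itga9 (1.61), and the lower were Itga3 (2.83, 5.93 and 0.632 against 8.55, 13.2 and 18.4 FPKM, -1.98, adjusted p = 0.00542) and Itgb4 (-1.26). The Itgb4 call was lost under either scaling and ended without dermal papilla replicate 4 (adjusted p = 0.12), interfollicular dermis replicate 2 (0.0576) or interfollicular dermis replicate 6 (0.126), and over all alternatives its adjusted p ran from 0.00804 to 0.405.

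Genes of ribosome biogenesis and splicing were mostly higher in interfollicular dermis, though how many depended on scaling. Of 23 ribosome biogenesis genes 20 (87%) had lower levels in dermal papilla and 0 higher (13 and 0 under median-of-ratios scaling). Of 20 splicing factors 18 (90%) were lower and 0 higher (13 and 0), and 1 of the 20 was listed at 0 throughout a group. Of all tested genes 30.8% were lower, and 18% under that scaling. Mycn, a Myc family factor that drives growth, was at 0.278, 1.36 and 0.0281 against 13.3, 15.7 and 13.3 FPKM (log2 fold change -3.37, SE 0.37, adjusted p = 2.92e-05). Dkc1, of small nucleolar particles, was at 3.25, 4.49 and 3.39 against 25.1, 32.5 and 12.6 FPKM (-2.29, adjusted p = 0.0123), a call that ended without interfollicular dermis replicate 2 (adjusted p = 0.0531), and over all alternatives its adjusted p ran from 1.26e-05 to 0.113. The nucleolar protein gene Ncl was at 19.4, 26.9 and 21.9 against 81, 69.9 and 52 FPKM (-1.52, adjusted p = 0.000318) and the splicing factor gene Srsf1 at 19.1, 22.1 and 20.4 against 105, 86 and 59.4 FPKM (-1.94, adjusted p = 0.0001). Of 27 oxidative phosphorylation genes 20 (74.1%) were lower and 0 higher (11 and 0 after scaling). Atp5b was at 122, 157 and 105 against 362, 383 and 253 FPKM (-1.36, adjusted p = 0.000869) and Cyc1 at 29.4, 35.3 and 27.6 against 73, 115 and 65.4 FPKM (-1.39, adjusted p = 0.000928). Among 24 cytosolic ribosomal protein genes 14 were lower (58.3%). The number was 3 under median-of-ratios scaling, where 18% of all tested genes were lower. It was 6 without dermal papilla replicate 4 or interfollicular dermis replicate 2, 7 without interfollicular dermis replicate 1 and 8 in a fit of only the 6 libraries. Many ribosomal protein genes have near-identical copies in the genome and are listed near 0, as is Gapdh at 0.508 FPKM or less in all 6 libraries, so their levels are uncertain.

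Secretory pathway genes leaned toward dermal papilla, 8 of 21 higher and 0 lower, and 16 higher under median-of-ratios scaling. The number was 5 without interfollicular dermis replicate 1 or in a fit of only the 6 libraries. Creb3l1, a factor that induces collagen secretion genes, was at 80.8, 37.8 and 69.7 against 1.72, 3.31 and 5.73 FPKM (log2 fold change 3.82, SE 0.34, adjusted p = 7.73e-06), Sec24d, a coat protein of procollagen export, at 32.5, 22.1 and 21.9 against 3.1, 3.49 and 5.5 FPKM (2.4, adjusted p = 0.000128) and the retrieval receptor gene Kdelr2 at 95.3, 77.5 and 129 against 29.3, 26.7 and 19 FPKM (1.95, adjusted p = 0.00023). Kdelr3 was listed at 0 in all 3 interfollicular dermis libraries. Of 12 tested glycolysis genes 1 was higher (8.33%, against 14.5% of all tested genes), Hk2 (35.4, 24.7 and 31.3 against 12.5, 12.1 and 18.3 FPKM, 1.05, adjusted p = 0.00998). The number was 3 under either scaling and 2 without interfollicular dermis replicate 6.

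Other epithelial genes ran both ways. Genes of differentiated epidermis were higher in dermal papilla in 4 of 19 cases (21.1%, against 14.5% of all tested genes) and lower in 2 (8 and 1 under median-of-ratios scaling). Krt10, a suprabasal keratin gene, was at 1959, 2052 and 571 against 120.1, 166 and 215 FPKM (log2 fold change 3.02, SE 0.67, adjusted p = 0.00313), and its partner Krt1 at 670.2, 427 and 216 against 4.31, 10.6 and 34.6 FPKM (4.93, adjusted p = 0.000466). In both, replicates 1 and 2 of dermal papilla were the highest libraries and replicate 4 was lower but still above interfollicular dermis. Krtdap, also of differentiating epidermis, was at 2064, 2287 and 449 against 465, 549.6 and 198 FPKM and did not pass (1.79, adjusted p = 0.0807), though it did under median-of-ratios scaling. Without dermal papilla replicate 4 the number higher was 10, and without replicates 1 and 2 together it was 1. The number lower was 4 without dermal papilla replicate 2, 1 without dermal papilla replicates 1 or 4 or interfollicular dermis replicate 2, and 0 without interfollicular dermis replicate 1. Summed over the list these genes held 2027 to 7585 FPKM in dermal papilla and 1651 to 2609 in interfollicular dermis. Of 22 hair matrix and shaft genes 12 had lower levels in dermal papilla and 0 higher (median -1.69), which include, beside those named above, Krt28 (16, 38 and 2.6 against 133, 112 and 145 FPKM, -3.29, adjusted p = 0.00219) of the inner root sheath, Foxn1 (-1.57) and Cux1 (12.5, 20.4 and 8.56 against 81.8, 74.7 and 99.5 FPKM, -2.61, adjusted p = 7.97e-05). Bulge and outer root sheath genes were lower in 9 of 19 cases and higher in 3 (47.4% and 15.8%, against 30.8% and 14.5% of all tested genes). Krt17 was at 41.9, 113 and 67.3 against 319, 485 and 288 FPKM (-2.36, adjusted p = 0.000494), Krt79 of the follicle opening at 20.4, 48.7 and 51.7 against 325, 379 and 245 FPKM (-3.03, adjusted p = 0.0008) and Sox9 at 6.95, 14.1 and 6.06 against 22.3, 32.5 and 23.7 FPKM (-1.5, adjusted p = 0.00325). Of 22 epithelial junction genes 4 were lower and 0 higher (18.2% lower, against 30.8% of all tested genes), with a median of -0.21 that became 0.17 under median-of-ratios scaling. Cdh3, P-cadherin of hair matrix and basal cells, was at 8.79, 3.43 and 5.31 against 39.5, 42.6 and 38.9 FPKM (-2.67, adjusted p = 0.000102), and Dsg2, a desmoglein, at 2.69, 3.43 and 0.51 against 8.54, 8.66 and 13.6 FPKM (-1.92, adjusted p = 0.00323). Without dermal papilla replicate 4 or interfollicular dermis replicate 1 the number lower was 2, and without dermal papilla replicates 1 and 2 together it was 9.

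Markers of other cells of the skin were found in both groups. Of 20 immune genes 4 had higher levels in dermal papilla and 0 lower (20%, against 14.5% of all tested genes). The number was 8 under median-of-ratios scaling, 7 under quantile normalization, 12 in a fit of only the 6 libraries, 2 without dermal papilla replicate 1 and 1 without replicates 1 and 2 together. Their sum was 519 to 1549 FPKM against 136 to 375. C1qb, a complement gene of macrophages, was at 136, 39.2 and 33.8 against 0.662, 1.28 and 1.79 FPKM (4.72, adjusted p = 0.00249), and C1qa at 105, 36.3 and 15.5 against 1.42, 1.48 and 2.37 FPKM (3.88, adjusted p = 0.013). The C1qa call ended without dermal papilla replicate 1 (adjusted p = 0.0576), and over all alternatives its adjusted p ran from 2.93e-08 to 0.218. Cd74, of antigen presentation, was at 418, 203 and 185 against 53.6, 70.6 and 128 FPKM and did not pass (1.66, adjusted p = 0.183). Of 13 tested endothelial genes 1 was higher (7.69%, against 14.5% of all tested genes), Tek (7.4, 11.4 and 1.3 against 0.337, 0.92 and 2.15 FPKM, 1.63, adjusted p = 0.0217), whose call ended without dermal papilla replicate 1 (adjusted p = 0.0766), dermal papilla replicate 2 (0.0896), interfollicular dermis replicate 1 (0.088) or interfollicular dermis replicate 2 (0.0596), and over all alternatives its adjusted p ran from 4.74e-05 to 0.765. The list summed to 22.5 to 250 FPKM in dermal papilla and 36.2 to 162 in interfollicular dermis. Melanocyte genes overlapped between the groups, with sums of 272 to 1042 against 225 to 1163 FPKM. Of 14, 1 was higher and 1 lower (7.14% each, against 14.5% and 30.8% of all tested genes). Ednrb was the higher (72.6, 53.4 and 38.2 against 26.9, 6.2 and 12.9 FPKM, 1.94, adjusted p = 0.00212) and Kit the lower (6.76, 6.78 and 2.69 against 17.7, 12.1 and 23.6 FPKM, -1.59, adjusted p = 0.00813). Of 11 tested Schwann cell genes 4 were higher (36.4%, against 14.5% of all tested genes), and 7 were without dermal papilla replicate 4. The 4 were Pmp22 (198, 221 and 189 against 17.8, 15.2 and 27.4 FPKM, 3.31, adjusted p = 1.52e-05), Ncam1 (2.36), Cdh19 (2.17) and S100b (2.04). Fibroblasts or papilla cells also express Pmp22 and Ncam1. Of 17 tested smooth muscle and sheath genes 8 were higher (47.1%), with 14 under median-of-ratios scaling, among them Tnmd (38.2, 26.5 and 67.9 against 3.04, 2.06 and 4.47 FPKM, 3.37, adjusted p = 0.00289) and Actg2 (14.9, 17.2 and 9.72 against 0.194, 1.54 and 1.19 FPKM, 2.95, adjusted p = 5.44e-05). Pericyte genes were higher in 4 of 8 cases (50%, against 14.5% of all tested genes), among them Pdgfrb (1.81). Their median was 1.21, or 1.05 without 1 member listed at 0 throughout a group. Adipocyte genes were higher in 3 of 5 cases (60%), Lpl (3.6), Car3 (2.58) and Cebpa (0.89). Of 5 skeletal muscle genes 1 was higher (20%, against 14.5% of all tested genes), Ckm (1.67). Its call ended without dermal papilla replicate 1 (adjusted p = 0.115), interfollicular dermis replicate 1 (0.0817) or interfollicular dermis replicate 2 (0.0587), and over all alternatives its adjusted p ran from 0.00295 to 0.201. The adipocyte marker Adipoq was at most 1.24 FPKM in any of the 6 libraries, and the muscle marker Myh4 at most 0.150. The Merkel cell factor gene Atoh1 was listed at 0 in all 6. Of 10 genes of that list 2 were tested, and both were higher, Krt20 (1.26) and Piezo2 (1.46). The call of Krt20 ended without dermal papilla replicate 1 (adjusted p = 0.118), interfollicular dermis replicate 1 (0.085) or interfollicular dermis replicate 2 (0.103), and over all alternatives its adjusted p ran from 0.00516 to 0.196. That of Piezo2 ended without interfollicular dermis replicate 1 (adjusted p = 0.0565), and over all alternatives its adjusted p ran from 0.00139 to 0.0565.

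Genes that respond to handling and to interferon were described as well, since cells were dissociated before sorting. Of 16 immediate early genes 7 had higher levels in dermal papilla and 2 lower (43.8% and 12.5%, against 14.5% and 30.8% of all tested genes). Under quantile normalization 3 were higher. Fos was at 446, 464 and 739 against 221, 191 and 288 FPKM (1.21, adjusted p = 0.0057), with its call lost under quantile normalization, Dusp1 at 421, 377 and 316 against 77, 85.6 and 115 FPKM (2.0, adjusted p = 6.77e-05) and Zfp36 at 530.5, 493 and 476 against 133, 140.4 and 189 FPKM (1.71, adjusted p = 0.000215). Egr3 was higher in interfollicular dermis (18.6, 23.6 and 5.92 against 42.2, 46.8 and 50.6 FPKM, -1.67, adjusted p = 0.00485). Of 13 tested interferon response genes 3 were higher and 0 lower (23.1% higher, against 14.5% of all tested genes), and 8 were higher under either scaling. Usp18 was at 3.98, 3.92 and 8.17 against 0.614, 0.0265 and 0.393 FPKM (2.2, adjusted p = 0.000525) and Ifi27 at 86.6, 72.8 and 77 against 26.5, 19.6 and 20.5 FPKM (1.79, adjusted p = 2.6e-05). Without dermal papilla replicate 4 the number was 6, and 5 without interfollicular dermis replicate 6. The part of dissociation in these differences was not tested.

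**Figure D5:**
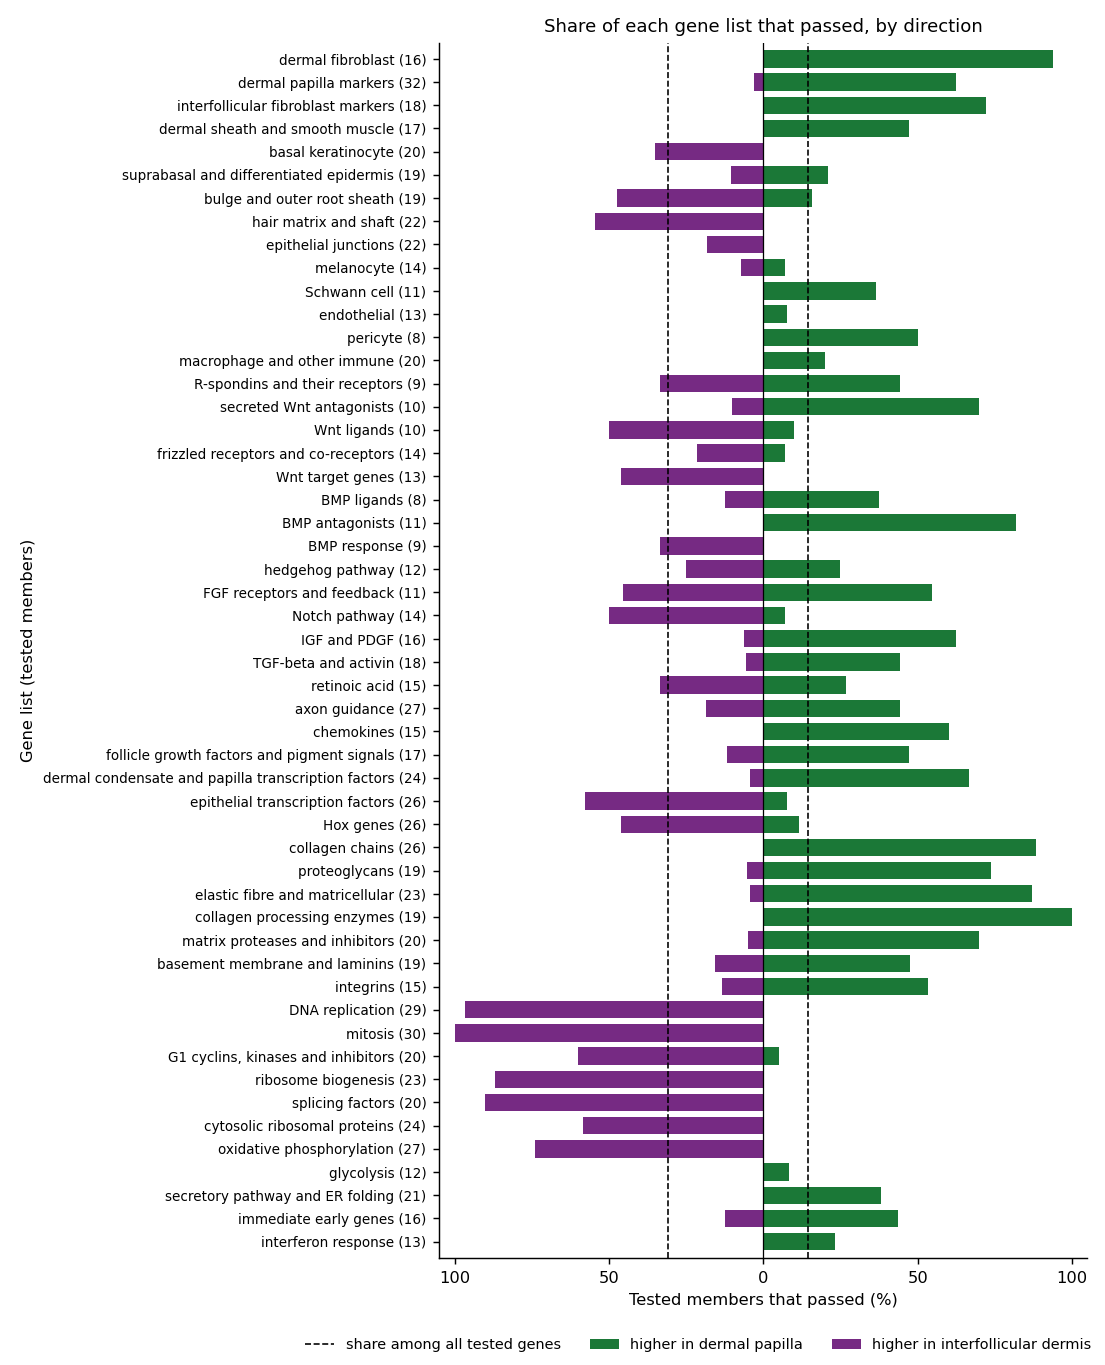
Share of the tested members of each gene list that passed, in percent, to the right (green) for genes higher in dermal papilla and to the left (purple) for genes higher in interfollicular dermis. The number of tested members is in brackets, lists with fewer than 8 are left out, and dashed lines mark the shares among all tested genes, 14.5% and 30.8%. Collagen processing enzymes reach 100% on the right and mitosis genes 100% on the left.

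The most abundant genes show what dominated each group. In dermal papilla the 10 with the highest mean were Sparc, Col1a1, Col3a1, Col1a2, Dcn, Krtdap, Krt10, B2m, Sprr1a and Ccl2, a mix of matrix genes and genes of differentiated epidermis. In interfollicular dermis they included the metallothionein genes Mt1 and Mt2, Hbb-bs, Gnb2l1, the epithelial galectin gene Lgals7, Apoe, Sprr1a, Rpl8 and Hspa1b. Dcn, decorin, was below these 10 in interfollicular dermis, at 2989, 1688 and 2699.6 FPKM in dermal papilla and 580.0, 687 and 339 FPKM in interfollicular dermis (2.22, adjusted p = 0.000531). Mt1 was at 1484, 1271 and 487 against 2387, 3235 and 898 FPKM (-0.97, adjusted p = 0.262, passing under quantile normalization), with replicates 4 and 6 the lowest of their groups.

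Some genes were listed at 0 in every library of 1 group, 29 in dermal papilla and 10 in interfollicular dermis. An exact 0 in this table can be a failed estimate, since Polr2b, a subunit of RNA polymerase that all cells use, was listed at 0 in all 3 dermal papilla libraries and at 27.2, 15.4 and 23.3 FPKM in interfollicular dermis. Of the 29 genes 10 were also at 0 in all 3 dermal stem cell libraries and 1 in all 3 dermal sheath libraries, while of the 10 genes 5 were at 0 in all 3 dermal sheath libraries and 0 in all 3 dermal stem cell libraries. Polr2b and Kdelr3 are among those that follow this pattern. It was not limited to zeros. Mean levels in dermal stem cells and dermal sheath were 262 and 6.7 FPKM for Dpt, 2758 and 235 for Col1a1, and 14.2 and 71.5 for Cenpa. Shh (0.49 and 2.16) and Krt35 (12.1 and 8.38) were low in both and did not follow it. Whether the dermal papilla and dermal stem cell libraries were processed apart from the others is not given in the sources used here. Such a difference, which would touch every fold change given, cannot be told apart from the groups. No fold is given for genes listed at 0 throughout a group. In interfollicular dermis the highest of them elsewhere were Kdelr3 (81.7, 52.9 and 60.2 FPKM in dermal papilla), Ndufa4l2 (85.2, 43.2 and 28.5), Lgi4 (5.43, 15.1 and 4.24), Snapin (5.57, 9.17 and 5.91), Fancc (4.21, 4.43 and 11.3) and Sco2 (3.08, 4.46 and 6.13). In dermal papilla they were, beside Polr2b, Rfc4 (53.6, 42.6 and 22.2 FPKM in interfollicular dermis), Pigf (45.6, 26.9 and 14.3), Pold2 (19.3, 25.3 and 16.1), Arg2 (12.1, 10.5 and 13.8) and Eme1 (7.17, 16.6 and 9.02). Of the tested genes 162 were listed at 0 in at least 1 of the 6 libraries and above 10 FPKM in another.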

How the data were processed

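RNA from sorted mouse skin cells was sequenced on the SOLiD platform. The deposited table holds 1 FPKM value per gene and library, made by the authors. The submitters' processing notes name TopHat2 2.0.13, SAMtools, Cufflinks 2.2.1 and the mm10 build, with no role given, and how the values were normalized is not given in the sources used here. Values are not counts, so depth is known only roughly, from the steps between low values, and no interval for counting error is given.

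Entries with at least 1 FPKM in at least 3 of the 6 libraries were kept, which left 11783 of 24692. log2(FPKM + 1) was fitted with limma 3.58.1 in R 4.3.3, using 4 group means over all 12 libraries (8 residual degrees of freedom) and a mean-variance trend. The contrast was tested two-sided with Benjamini-Hochberg adjustment over all 11783 entries at 0.05. With a pseudocount of 1, the fold change of a low gene is understated. The procedure was tested on simulated data.

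The members and 56 gene lists were chosen with earlier results of these data known. Genes were named as the 15 largest in each direction, the most abundant 10 of each group, and markers and leading members of each list. Further genes were named for their known role after their values were seen. Some list members are not reported here. Gene positions come from RefSeq GRCm38.p6, matched by gene identifier for 11437 entries, and promoters from the same build. Alternatives were another pseudocount, filters, scalings, the 6 libraries alone, no trend, a replicate block and each library left out.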

Additional observations from a re-analysis of the deposited data

How the results depend on the processing

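There were 16 alternatives, of which 15 were planned. The other, which leaves out dermal papilla replicates 1 and 2 at once, was chosen after seeing the data. Over these the number of genes passing ran from 3953 to 5443 and no call turned to the other direction. Median-of-ratios scaling lowered the number higher in interfollicular dermis from 3629 to 2123, and 3829 of the 5335 calls were kept in the same direction. The other counts stayed within 1.5 times of 1706 and 3629. Leaving out 1 library at a time gave 4243 to 5170 passing genes, 1355 to 1760 higher and 2888 to 3574 lower in dermal papilla. A stricter filter of 5 FPKM left 7505 genes, of which 3953 passed, and no filter left 19650, of which 5030 passed. Among named genes, 232 that passed were followed, and 190 passed in the same direction under every alternative in which they were tested. At the filter of 5 FPKM 205 of these 232 were tested.

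The groups share only the replicate numbers 1 and 2, and nothing says that these mark a shared animal or day. Deviations of same-numbered libraries correlated at -0.15 and 0.043 across genes. With a replicate block 5443 genes passed in the fit of 12 libraries (2065 higher, 3378 lower) and 5060 in that of the 6 (2035 higher, 3025 lower). Among the counts of list members that the block moved by over 1.5 times, in the fits of 12 and of 6 libraries, immune genes higher in dermal papilla went from 4 to 17 and 19, endothelial genes from 1 to 6 and 9, interferon response genes from 3 to 8 and 10, epithelial transcription factor genes from 2 to 5 and 5 and glycolysis genes from 1 to 4 and 4. Papilla markers lower there went from 1 to 3 and 3, and BMP response genes from 3 to 6 and 6. In 1 of these fits, smooth muscle and sheath genes went from 8 to 13 (12 libraries), differentiated epidermis from 4 to 11, Schwann cell genes from 4 to 7 and melanocyte genes from 1 to 4 (6 libraries).

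Among named genes that did not pass, the direction of Col17a1 turned to 0.33 under median-of-ratios scaling, to 0.80 and 0.81 with the replicate block in the fits of 12 and of 6 libraries (adjusted p = 0.021 and 0.051 from limma, so that it passed as higher in dermal papilla in the first), and to 0.32 without dermal papilla replicate 4 and 0.43 without interfollicular dermis replicate 6 (range with 1 library left out -0.36 to 0.43). That of Col18a1 turned to -0.092 without dermal papilla replicate 2 and to -0.037 without interfollicular dermis replicate 1 (range with 1 library left out -0.092 to 0.39) and to -0.36 without dermal papilla replicates 1 and 2 together, that of Col7a1 to -0.12 without interfollicular dermis replicate 1 (range -0.12 to 0.78), and that of Ptch1 to 0.26 without dermal papilla replicates 1 and 2 together. The cause was not tested. The unknown read number limits what can be said of genes near 1 FPKM.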
